A study of Mus musculus with 2 samples.

Results

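The *Hox* clusters of the mouse and the chromatin around them were examined for accessibility in the cell types of the E14.5 testis. A called ATAC peak was taken when its midpoint lay within 1000000 bp of the start of any *Hoxa*, *Hoxb*, *Hoxc* or *Hoxd* gene, which gave 726 of 109215 peaks, or 0.665%. Of these, 162 belonged to HoxA on chromosome 6, 230 to HoxB on chromosome 11, 182 to HoxC on chromosome 15 and 152 to HoxD on chromosome 2 (mm10). Inside the clusters, from 5000 bp beyond one outermost *Hox* start to 5000 bp beyond the other, lay 94 peaks, and 632 lay in the flanks. The flank beyond the highest-numbered gene is called the Hox13 side here, and the flank beyond the lowest-numbered gene the Hox1 side.

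Whole testes came from *Nr5a1-cre; Rosa-tdTomato* embryos at E14.5, a cross in which the Cre is driven by *Nr5a1* and every nucleus shares the genotype. A 10x multiome run read RNA and open chromatin in each nucleus, as 1 library per assay, and how many embryos were pooled was not stated in the sources. There is no replicate, so no difference below was tested, and every 95% interval covers counting error only. Of 9833 barcodes, 7667 passed the filters and 7197 were kept after 470 likely doublets were removed, and the large classes held from 660269 to 5782218 fragments at peaks.

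The nuclei were grouped by RNA alone, with the *Hox* genes and their neighbours left out of the genes used, so that neither the peaks nor *Hox* RNA made the groups. Classes were named from marker genes: 2886 progenitor-like nuclei of the interstitium, 996 germ-like, 950 mesonephric mesenchyme-like, 829 Sertoli-like, 786 Leydig-like and 428 surface epithelium-like nuclei. Another 38 erythroid-like, 47 pericyte-like, 89 endothelial-like and 66 immune-like nuclei formed classes too small for values of single peaks. Markers detected were 7 of 7 for progenitors, 6 of 6 for Leydig, 4 of 4 for Sertoli, 4 of 5 for germ, 5 of 6 for surface epithelium and 3 of 3 for mesonephric mesenchyme. A cluster of 82 nuclei led by *Pax8* stayed unnamed. The mesonephric mesenchyme-like class was mixed: at a finer clustering only 356 of its nuclei kept the name, 332 took that of contractile cells, 149 that of progenitors and 113 that of surface epithelium. The germ-like class held 101 nuclei with a median of 35553 UMIs, all of them over the automatic doublet threshold, and the germ-like values that they could move most are also given for the other 895 nuclei. At the finer clustering 373 germ-like nuclei kept the name and 623 were left unnamed, namely those 101 and 522 whose leading genes held *Lhx1*, a listed marker of nephric duct, although germ markers had the highest score in both clusters. At the finer clustering 793 progenitor-like nuclei took the contractile name.

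Accessibility is given as fragments per 1000000 fragments at all peaks of the same class (FPM), and RNA as counts per 1000000 UMIs of the class (CPM). Germ-like nuclei had 32.0% of their fragments at peaks and progenitor-like nuclei 40.6%. Member peaks took a similar share in all 6 large classes, from 0.74% of the fragments at peaks in Sertoli-like to 0.86% in surface epithelium-like nuclei.

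*Hox* genes code for homeodomain transcription factors that give cells their position along the body axis, and their order in each cluster follows the order of their expression domains from head to tail. Genes of the same number in different clusters form a paralogue group. Enhancers that act on a cluster can lie far out in the gene-poor DNA at either end, and in limbs the HoxD cluster is known to be read by separate regulatory landscapes on its Hox13 and Hox1 sides. Inactive *Hox* genes are classical targets of Polycomb repression, and their starts are rich in CpG dinucleotides.

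Sequences of 5 member peaks that the results below turn on show how CpG-rich starts and distal peaks differed. Each is part of the peak on the + strand of mm10. The first 3 end before a *Hox* start, carried most fragments in germ-like nuclei, and have their CpG dinucleotides in capitals. They are the stretch upstream of *Hoxc13* at chr15:102920759-102920958, of *Hoxd1* at chr2:74762626-74762775 and of *Hoxa13*, a gene on the - strand, at chr6:52260881-52261080.
Hoxc13 start: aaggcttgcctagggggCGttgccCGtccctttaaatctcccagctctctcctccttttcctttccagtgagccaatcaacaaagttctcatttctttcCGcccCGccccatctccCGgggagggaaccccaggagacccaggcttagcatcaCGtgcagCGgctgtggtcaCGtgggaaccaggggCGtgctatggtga
Hoxd1 start: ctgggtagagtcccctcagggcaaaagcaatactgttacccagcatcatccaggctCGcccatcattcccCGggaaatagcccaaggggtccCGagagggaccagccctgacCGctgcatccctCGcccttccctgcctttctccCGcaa
Hoxa13 start: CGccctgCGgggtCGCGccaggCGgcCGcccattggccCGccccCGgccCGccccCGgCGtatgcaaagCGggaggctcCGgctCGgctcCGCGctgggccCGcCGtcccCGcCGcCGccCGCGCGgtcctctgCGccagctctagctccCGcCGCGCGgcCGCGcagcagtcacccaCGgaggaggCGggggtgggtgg
They held 9, 6 and 33 CpG. The other 2 come from the flanks, away from CpG-rich DNA, and have the searched motifs in capitals. One is the peak with most fragments away from gene starts in the Hox1-side flank of HoxD, at chr2:75202667-75202866 in an intron of the noncoding RNA gene *2600014E21Rik*. The other is the peak with the highest ratio in Leydig-like nuclei, at chr11:96462036-96462235 in an intron of *Gm11529*.
HoxD flank: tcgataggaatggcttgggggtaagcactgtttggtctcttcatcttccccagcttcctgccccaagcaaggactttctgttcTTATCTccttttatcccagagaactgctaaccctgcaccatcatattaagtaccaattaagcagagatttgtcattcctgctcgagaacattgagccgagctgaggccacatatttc
HoxB flank: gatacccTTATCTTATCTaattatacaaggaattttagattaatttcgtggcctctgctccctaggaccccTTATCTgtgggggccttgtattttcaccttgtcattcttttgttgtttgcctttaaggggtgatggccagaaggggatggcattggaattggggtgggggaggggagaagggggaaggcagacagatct
The HoxD flank stretch held 1 match and the HoxB flank stretch 3 matches to AGATAA, the site of Gata factors, all on the opposite strand and thus printed as TTATCT, the first 2 of the 3 overlapping by 1 base.

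The 4 motifs were counted on both strands in the central 300 bp of every peak. The core of the CTCF motif, the site of the protein that marks many chromatin boundaries, was in 0 of the peaks inside any of the 4 clusters, against 5.07% of all peaks, 2.40% of all promoter peaks and from 4.35% to 8.82% of the peaks in the 8 flanks. AGATAA was in 17.3% of all peaks and 13.5% of members, CAAGGTCA, a site of Nr5a1, in 6.18% and 4.55%, and TGATTTAT, a site of Hox with Pbx proteins, in 1.71% and 1.79%. A match is a description of the letters only, and no match says nothing of the factor.

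Peaks inside the clusters were unlike most peaks in composition. Their median CpG count per 300 bp was 22 in HoxA, 17.5 in HoxB, 18 in HoxC and 19 in HoxD, against 4 over all peaks. Of the 94, 53.2% lay within 1000 bp of an annotated gene start, against 17.7% of all peaks and 23.8% of all members. Promoter peaks of the whole genome had a median of 22 CpG, so the inside peaks resembled promoters in this respect.

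Accessibility inside the clusters was present in every large class and differed between classes by less than 2-fold. Among the 6 large classes the HoxD cluster was most accessible in progenitor-like nuclei at 344 FPM (329 to 359) and mesonephric mesenchyme-like nuclei at 332 FPM (306 to 358). Their intervals overlap. Surface epithelium-like nuclei had 280 FPM (241 to 324), Leydig-like 257 FPM (230 to 287), germ-like 253 FPM (234 to 274) and Sertoli-like nuclei 207 FPM (185 to 230) there. Surface epithelium-like, Leydig-like and germ-like nuclei thus overlap one another in their intervals, and Sertoli-like nuclei were lowest, at 0.80 times (0.69 to 0.94) the Leydig-like level. The ratio of progenitor-like to Leydig-like nuclei was 1.34 (1.19 to 1.51), higher in progenitor-like nuclei by more than counting error.

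The HoxA cluster had another order. Surface epithelium-like nuclei had 282 FPM (243 to 325), germ-like 269 FPM (249 to 289) and mesonephric mesenchyme-like nuclei 267 FPM (244 to 291), with no separation among them. Leydig-like nuclei had 209 FPM (184 to 236), progenitor-like 202 FPM (191 to 214) and Sertoli-like nuclei 151 FPM (132 to 171). Here the ratio of mesonephric mesenchyme-like to progenitor-like nuclei was 1.32 (1.19 to 1.47), and that of progenitor-like to Leydig-like nuclei 0.97 (0.84 to 1.11). The 356 nuclei that kept the mesonephric name at the finer clustering had 314 FPM (272 to 361), 1.55 times (1.33 to 1.81) the progenitor-like level. The contractile part of the class had 215 FPM, and the ratio of the mesonephric to the contractile part was 1.46 (1.16 to 1.84).

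HoxB and HoxC differed less. The ratio of mesonephric mesenchyme-like to progenitor-like nuclei was 1.22 (1.10 to 1.36) inside HoxB, 1.14 (1.02 to 1.27) inside HoxC and 0.96 (0.88 to 1.06) inside HoxD. For the mesonephric part alone it was 1.27 (1.08 to 1.49), 1.12 (0.94 to 1.33) and 0.99 (0.86 to 1.14). In HoxC the excess of this part was thus within counting error. The mesonephric part did not separate from the contractile part inside HoxB, at 1.13 (0.90 to 1.42), or HoxC, at 0.91 (0.72 to 1.15). The ratio of progenitor-like to Leydig-like nuclei was 1.07 (0.93 to 1.23) inside HoxB and 1.23 (1.06 to 1.43) inside HoxC. Progenitor-like nuclei therefore stood above Leydig-like nuclei by more than counting error in HoxC and HoxD and not in HoxA and HoxB.

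Among the small classes, erythroid-like nuclei had 0 fragments inside HoxB, 1 inside HoxC, 4 inside HoxA and 5 inside HoxD. In these 38 nuclei the limit of 3 counts that a count of 0 allows is 46.2 FPM and the exact Poisson bound 56.8 FPM, so at this depth the HoxB cluster was below the 202 to 265 FPM of the large classes. The flanks of erythroid-like nuclei were open, with 2125 FPM on the Hox1 side of HoxB. Immune-like nuclei were also low inside HoxB, HoxC and HoxD, with ratios to all other nuclei of 0.53 (0.26 to 0.98), 0.35 (0.13 to 0.77) and 0.28 (0.11 to 0.59), but not inside HoxA, with 0.87 (0.50 to 1.42). Pericyte-like nuclei had 554 FPM (423 to 713) inside HoxD, from 60 fragments, which is above the interval of every large class there. The map of FPM by cluster and class shows these columns beside the large classes.

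**Figure D1:**
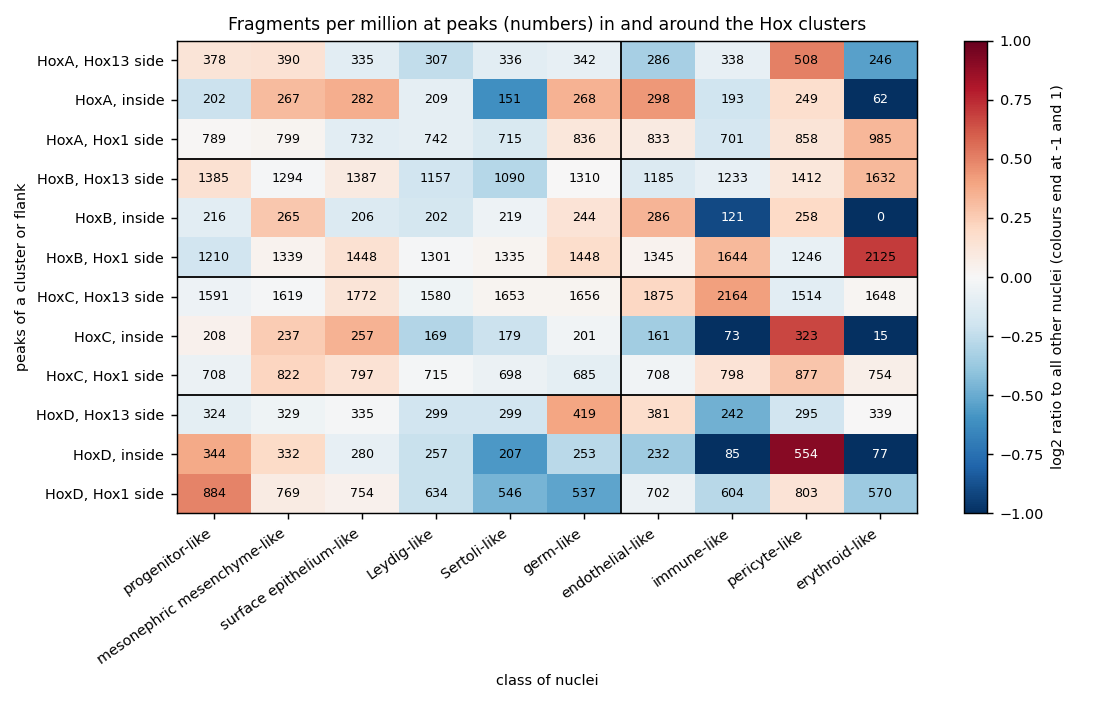
FPM (numbers) for the 12 regions (rows: Hox13-side flank, inside and Hox1-side flank of each cluster) in 10 classes of nuclei (columns), with the colour giving the log2 ratio of the class to all other nuclei, cut at -1 and 1. The Hox1-side flank of HoxD falls from 884 in progenitor-like to 537 in germ-like nuclei, and the 4 inside rows are lowest in erythroid-like nuclei.

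*Hox* starts were taken one by one. Of 39 *Hox* genes, 30 had a called peak within 1000 bp of a start, and these 39 start peaks were compared with the RNA of the gene in the same nuclei. Over all start peaks together, germ-like nuclei had 546 FPM (518 to 576), mesonephric mesenchyme-like 547 FPM (514 to 581), surface epithelium-like 510 FPM (457 to 568), progenitor-like 489 FPM (472 to 508), Leydig-like 404 FPM (369 to 441) and Sertoli-like nuclei 344 FPM (316 to 374). Of the small classes, erythroid-like nuclei had 77.0 FPM (25.0 to 180). Pericyte-like nuclei had 738 FPM (586 to 919), from 80 fragments, above every large class. Leydig-like and Sertoli-like nuclei were the lowest of the large somatic classes here and in RNA. On this scale the germ-like class stood beside the mesonephric class in accessibility, but it was last of the large classes in RNA. Its place in accessibility depends on the scaling. Germ-like nuclei had 32.0% of their fragments at peaks and mesonephric mesenchyme-like nuclei 38.4%. Scaled to all fragments, the germ-like sum would thus fall below the mesonephric one.

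*Hox* RNA summed over the 39 genes was 764 CPM (737 to 792) in surface epithelium-like, 598 CPM (588 to 609) in progenitor-like, 579 CPM (562 to 596) in mesonephric mesenchyme-like, 247 CPM (236 to 257) in Leydig-like, 157 CPM (150 to 165) in Sertoli-like and 110 CPM (106 to 115) in germ-like nuclei. Without the 101 high-UMI nuclei the germ-like sum was 54.0 CPM (50.4 to 57.8), and the high-UMI nuclei themselves had 239 CPM (227 to 250). Erythroid-like nuclei, in which free RNA of other cells is the reference, had 41.6 CPM (21.5 to 72.6), an interval that holds the value of the 895 germ-like nuclei. Depth differed, with a median of 15003 UMIs in the 895 germ-like and 6491 in the erythroid-like nuclei. The 895 nuclei held 828 *Hox* UMIs and the 38 erythroid-like nuclei 12. CPM alone thus cannot place the germ-like sum against free RNA, whose part was not tested. The few UMIs of *Hoxd1* and of groups 12 and 13 given below were nearly all germ-like. Start-peak accessibility in the 895 nuclei was 553 FPM (520 to 588) and did not fall when the high-UMI nuclei were left out.

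Of the 30 genes with a start peak, 10 had their highest start accessibility in germ-like nuclei: *Hoxa4*, *Hoxa7*, *Hoxa13*, *Hoxb4*, *Hoxb7*, *Hoxb13*, *Hoxc11*, *Hoxc13*, *Hoxd1* and *Hoxd13*. Another 9 were highest in surface epithelium-like, 7 in mesonephric mesenchyme-like, 2 each in progenitor-like and Leydig-like and 0 in Sertoli-like nuclei. Among 17791 genes of the whole genome with start peaks past 50 fragments, 39.4% were highest in germ-like nuclei, so the count for *Hox* genes was no higher than this background. The shares of these genes were 19.3% for surface epithelium-like, 8.54% for mesonephric mesenchyme-like, 5.83% for progenitor-like, 16.1% for Leydig-like and 10.8% for Sertoli-like nuclei. Of the 21 genes with at least 100 UMIs, RNA was highest in surface epithelium-like nuclei for 10, mesonephric mesenchyme-like for 6, progenitor-like for 4, Sertoli-like for 1 and germ-like nuclei for 0, whereas germ-like nuclei were highest for 34.6% of all genes with at least 100 UMIs. Shares of all such genes were 11.3% for surface epithelium-like, 7.99% for mesonephric mesenchyme-like, 10.8% for progenitor-like and 17.3% for Sertoli-like nuclei.

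*Hoxd1*, the lowest-numbered gene of HoxD, had the highest germ-like ratio of the *Hox* starts. Its start peak had 42.9 FPM in germ-like nuclei (35.3 to 51.6) and between 10.6 and 13.5 FPM in the other 5 large classes, a ratio to all other nuclei of 3.39 (2.62 to 4.36). Only 5 UMIs of *Hoxd1* were counted, 4 of them in germ-like nuclei. *Hoxc13*, at the other end of its cluster, had 56.4 FPM (47.6 to 66.3) in germ-like nuclei and from 14.7 to 25.0 FPM in the others. *Hoxa13* had 38.2 FPM (31.1 to 46.6) against 7.3 to 17.9 FPM. Their ratios to all other nuclei were 2.48 (2.01 to 3.04) and 2.63 (2.03 to 3.39), and their UMIs numbered 10 and 3. In the 895 germ-like nuclei the ratios of *Hoxd1*, *Hoxc13* and *Hoxa13* were 3.92, 2.69 and 2.79. These are the starts whose sequences are printed above.

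*Hoxa7* and *Hoxb4*, genes of the middle of the clusters, also had start peaks past 2-fold in germ-like nuclei, with ratios of 2.54 (1.85 to 3.47) and 2.34 (1.65 to 3.29). Both genes had some RNA in somatic classes, *Hoxb4* up to 6.6 CPM in mesonephric mesenchyme-like and *Hoxa7* up to 4.5 CPM in surface epithelium-like nuclei.

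By paralogue group, the germ-like ratio was highest at groups 12 and 13. The 6 start peaks of groups 12 and 13, all of them at the 4 genes of group 13 since *Hoxc12* and *Hoxd12* had no called peak, had 122 FPM in germ-like nuclei and 46.6 to 59.1 FPM in the other large classes, and the ratio of germ-like to all other nuclei was 2.28 (1.99 to 2.62). Groups 1 to 4 gave 1.20 (1.09 to 1.32), groups 5 to 8 gave 1.01 (0.89 to 1.14) and groups 9 to 11 gave 0.80 (0.69 to 0.91). In the 895 germ-like nuclei without the high-UMI part the ratio of groups 12 and 13 was 2.49 (2.14 to 2.88), and in the 373 nuclei that kept the name it was 2.38 (1.96 to 2.87). Scaled to all fragments in place of fragments at peaks it was 1.88, since the germ-like class has a smaller share of its fragments at peaks. RNA of these groups came to 13 UMIs in germ-like nuclei, 12 of them outside the high-UMI part, 1 in progenitor-like nuclei and 0 in the other 4 large classes. The plot by paralogue group sets the ratio of the starts beside the RNA.

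**Figure D2:**
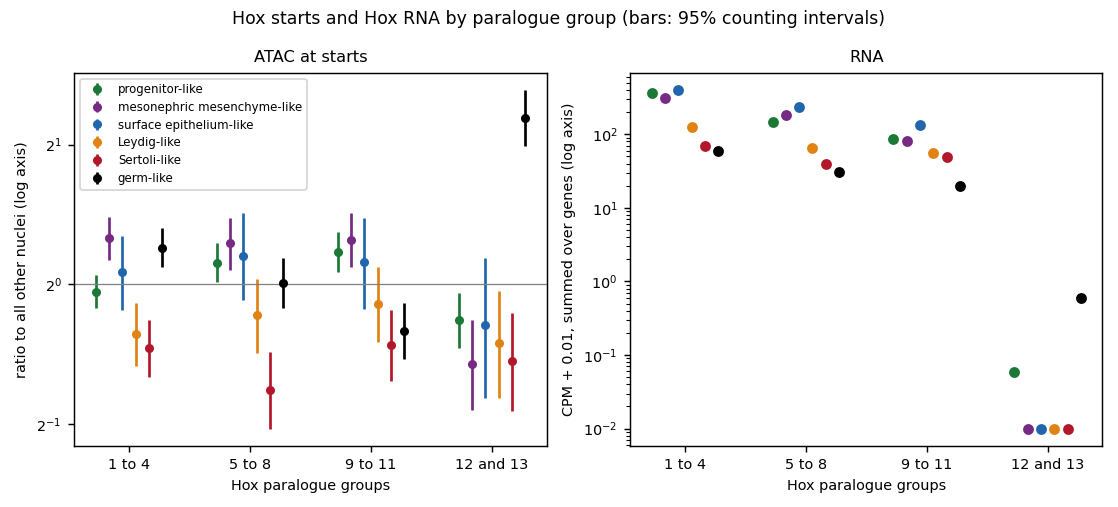
Left, ratio of the FPM at *Hox* start peaks of each class to all other nuclei (log axis), for 4 sets of paralogue groups, with bars for 95% counting intervals. Right, RNA of the genes of the same groups in CPM on a log axis with a small constant added. The germ-like point of groups 12 and 13 lies at 2.28 on the left, and on the right these groups lie below 1 CPM in each of the 6 classes.

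CpG content went with germ-like accessibility over the whole genome, so the *Hox* starts were set beside other peaks of the same content. Among all peaks with at least 20 CpG in 300 bp the median germ-like ratio was 1.20, and among those with 0 to 9 CpG it was 0.60. Of the 22 *Hox* start peaks with at least 20 CpG, 3 (13.6%) were at least 2-fold higher in germ-like nuclei. Of 1867 promoter peaks with at least 20 CpG whose genes stayed under 5 CPM in every class, 24.2% were. Of the 14 *Hox* start peaks with 10 to 19 CpG, 3 (21.4%) were, against 16.4% of the promoter peaks of such genes with this content. Over all peaks, whatever the RNA of the gene, the shares were 11.6% and 13.1% in these bands, and over all promoter peaks 9.94% and 10.3%. The *Hox* starts thus lay between the references in the first band and above them in the second, on counts of 3 each, and the part of CpG content in their values was not tested.

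Accessibility at starts and RNA were also compared in their order over the classes. Over the 6 large classes Spearman's rho between start FPM and CPM could be given for 16 genes with at least 100 UMIs, and its median was 0.60, from -0.94 to 0.94, with 14 above 0. Over the 5 somatic classes alone the median was also 0.60, from -0.9 to 0.9, with 13 above 0. Over 13539 genes of the genome with as many fragments and UMIs the median was 0.31, with 72.2% above 0, and over the somatic classes 0.30, with 63.5% above 0. Of the 16 *Hox* genes 9 (56.25%) reached 0.6 over the 6 classes, against 30.8% of the 13539 genes. *Hoxa9*, *Hoxc4*, *Hoxd11* and *Hoxb4* had 0.14, 0.14, 0.20 and -0.26. Each rho rests on classes of 1 library and is a description. *Hoxd8* had the highest, with start accessibility of 49.5 FPM in progenitor-like and 15.0 FPM in Sertoli-like nuclei and RNA of 28.7 and 6.63 CPM. *Hoxd10* had 40.5 FPM (35.5 to 46.0) in progenitor-like nuclei, 35.2 FPM in mesonephric mesenchyme-like and 14.3 to 21.2 FPM in the other large classes, but its RNA was highest in surface epithelium-like nuclei at 21.6 CPM against 14.8 CPM in progenitor-like nuclei. *Hoxa10* had the lowest rho, with 13 FPM in Leydig-like and 7.6 FPM in surface epithelium-like nuclei, against RNA of 0.34 and 5.03 CPM. *Hoxa3*, a gene of the anterior groups, was highest in surface epithelium-like nuclei by both measures, with 40.9 FPM (27.0 to 59.5) and 41.3 CPM (35.2 to 48.1). The RNA and starts of *Hoxa3* to *Hoxa5*, *Hoxc4* to *Hoxc6* and *Hoxd3* with *Hoxd4* lie in overlapping transcripts and cannot be told apart with certainty.

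**Figure D3:**
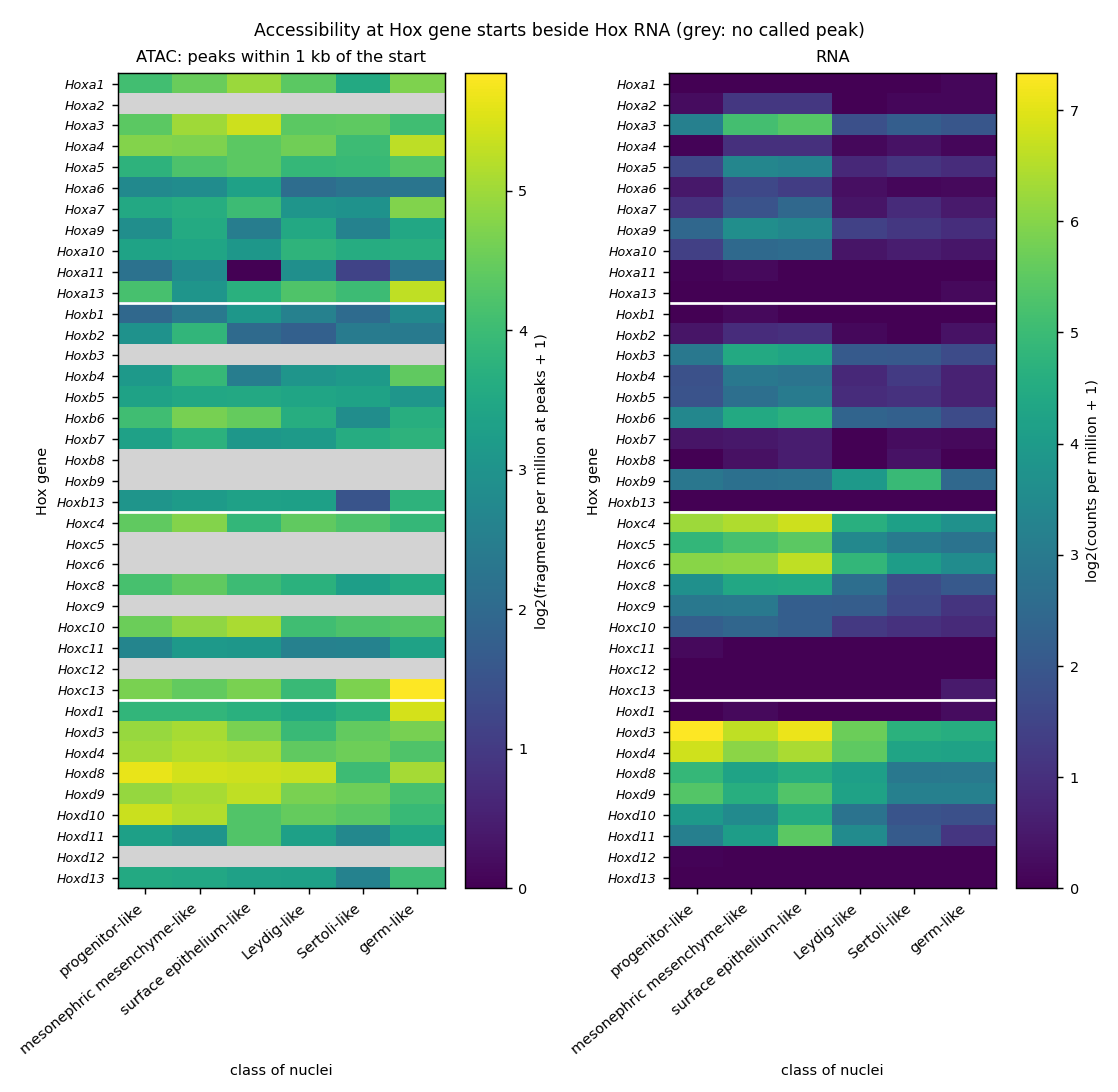
Accessibility of called peaks within 1000 bp of each *Hox* start on a scale of log2(FPM + 1) (left), and RNA of the gene as log2(CPM + 1) (right), in the 6 large classes, with *Hox* genes as rows and white lines between HoxA, HoxB, HoxC and HoxD. *Hoxc13* and *Hoxd1* are brightest in germ-like nuclei on the left and dark in all classes on the right, and the 9 grey rows are genes with no called start peak.

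*Hoxb9* was the 1 gene of the 21 with its highest RNA in Sertoli-like nuclei, at 30.3 CPM (27.1 to 33.9). Leydig-like nuclei had 14.2 CPM (11.9 to 16.9) and the other large classes 4.62 to 6.5 CPM. No peak was called at its start, but a peak 1021 bp upstream at chr11:96269614-96270436 had 25.0 FPM (17.9 to 34.0) in Sertoli-like and 22.8 FPM (15.2 to 32.9) in Leydig-like nuclei. It had 7.73 FPM (4.72 to 11.9) in germ-like and 10.7 FPM (8.22 to 13.8) in progenitor-like nuclei, so its order was that of the RNA except in surface epithelium-like nuclei, where it had 16.7 FPM (8.32 to 29.8). The noncoding gene *Gm53*, farther upstream on the Hox13 side of *Hoxb9*, had 145 CPM (138 to 152) in Sertoli-like nuclei and 13.1 to 42.0 CPM in the other large classes, and its 3 start peaks had 53.8 FPM against 21.2 to 36.6 FPM. *Gm53* was chosen after its values were seen.

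Single peaks were compared as the ratio of a class to all other nuclei, for the 557 members and 68459 peaks in all that had at least 50 fragments, and a peak was called when the ratio passed 2-fold. In progenitor-like nuclei 65 of 557 members (11.7%) were higher, against 11.8% of all peaks, and 46 were lower, against 9.86%. Mesonephric mesenchyme-like nuclei had 40 higher (all peaks 6.47%) and 40 lower (12.8%), a share of 7.18% in each direction. The lower count depended on the class: in the 356 nuclei that kept the name it was 106, or 19.03%, against 24.1% of all peaks. Members as a whole were near the background in progenitor-like nuclei. In surface epithelium-like nuclei 60 were higher (all peaks 8.99%) and 109 lower (27.3%). Leydig-like nuclei had 18 higher, or 3.23%, against 7.15% of all peaks, and 111 lower against 18.2%. Sertoli-like nuclei had 38 higher (all peaks 10.3%) and 133 lower, or 23.9%, against 21.4%. Germ-like nuclei had 51 higher (all peaks 8.12%) and 123 lower, or 22.1%, against 28.6%. Without the high-UMI nuclei the germ-like class had 57 higher of 534 (10.7% against 9.07% of all peaks) and 164 lower (30.7% against 38.4%). In the higher direction the Leydig-like and Sertoli-like shares lay below their backgrounds. The Leydig-like share was also lower among peaks away from gene starts, with 4.58% of members against 8.92% of all such peaks. The Sertoli-like share was lower there too, with 7.12% against 12.7%. At gene starts it went the other way, with 10 of 164 members (6.10%) against 3.40% of all promoter peaks.

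Inside the clusters the shares differed by class. Of 89 inside peaks past the minimum, 2 were higher in progenitor-like, 12 in mesonephric mesenchyme-like, 6 in surface epithelium-like, 2 in Leydig-like, 2 in Sertoli-like and 8 in germ-like nuclei. Since gene starts were called higher less often than other peaks in the somatic classes, 50 inside peaks at starts and 39 away from them were read apart. At starts 1 was higher in progenitor-like nuclei (all promoter peaks 1.71%), 0 in Leydig-like (2.04%), 1 in Sertoli-like (3.40%), 3 in surface epithelium-like (3.72%) and 6 in germ-like nuclei (9.72%). Away from starts 1 was higher in progenitor-like nuclei (all such peaks 15.3%), 2 in Leydig-like (8.92%), 1 in Sertoli-like (12.7%), 3 in surface epithelium-like (10.8%) and 2 in germ-like nuclei (7.57%). The progenitor-like and Sertoli-like shares thus lay below the background mainly away from starts. Inside peaks were richer in CpG than most peaks, and peaks of like CpG content were not set beside them for these classes. The 12 mesonephric mesenchyme-like peaks (13.5% against 6.47% of all peaks) were 4 in HoxA, 6 in HoxB, 2 in HoxC and 0 in HoxD, with 7 of them at starts (14% against 1.30% of all promoter peaks) and 5 away from starts (12.8% against 8.26%). Sertoli-like nuclei had 20 lower inside peaks, or 22.5%, against 21.4% of all peaks. Of these, 10 were at starts (20% against 8.04% of all promoter peaks) and 10 away from them (25.6% against 26.0%). Over the 89 the median log2 ratio was 0.29 in mesonephric mesenchyme-like nuclei, against -0.06 over all peaks, and -0.48 in Sertoli-like nuclei, against -0.19.

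The Hox1-side flank of HoxD was the region where progenitor-like nuclei stood furthest from the rest. This gene-poor stretch holds *Mtx2* and, at its far end, *Hnrnpa3*. Its 92 peaks had 884 FPM (860 to 909) in progenitor-like, 769 FPM (730 to 809) in mesonephric mesenchyme-like, 754 FPM (689 to 823) in surface epithelium-like, 634 FPM (590 to 680) in Leydig-like, 546 FPM (511 to 584) in Sertoli-like and 537 FPM (509 to 566) in germ-like nuclei, 502 FPM (470 to 534) without the high-UMI part. The ratio of progenitor-like to Leydig-like nuclei was 1.39 (1.29 to 1.51), and that of germ-like to progenitor-like nuclei 0.61 (0.57 to 0.64). Mesonephric mesenchyme-like and surface epithelium-like nuclei did not separate from each other, nor did Sertoli-like and germ-like nuclei.

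The difference lay away from gene starts. The 7 start peaks of the flank had 218 FPM in progenitor-like and 223 FPM in Leydig-like nuclei, while the other 85 peaks had 667 FPM (646 to 688) and 411 FPM (376 to 449), and 296 FPM (276 to 318) in germ-like nuclei. Of 65 peaks past the minimum, 23 (35.4%) were at least 2-fold higher in progenitor-like nuclei, against 11.8% of all peaks and 15.3% of all peaks away from gene starts. At the finer clustering the count was 15 of 65 (23.1%, against 8.46% of all peaks), and at the automatic doublet threshold 15 of 46 (32.6% against 12.2%). Surface epithelium-like nuclei had 14 higher (21.5%, against 8.99% and 10.8%) and 23 lower (35.4%, against 27.3% and 33.2%), so the higher calls were not particular to progenitor-like nuclei. In Sertoli-like nuclei 34 (52.3%) were lower, against 21.4% of all peaks and 26.0% of those away from gene starts. In germ-like nuclei 32 (49.2%) were, against 28.6% and 36.3%.

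The 23 peaks higher in progenitor-like nuclei lay from 131 to 856 kb from the cluster, with a median of 440 kb, and none was at a gene start. Of the 23, 16 were intergenic and 6 lay in *2600014E21Rik*, and their median CpG count was 4. Ratios ran from 2.02 to 5.59, and the highest ratio just below the threshold in this flank was 2.0. Choosing peaks by the progenitor-like ratio lowers the ratios of the other classes, so these are set beside the 8067 peaks of the genome chosen in the same way. In mesonephric mesenchyme-like nuclei 10 of the 23 had a ratio above 1 (37.1% of the 8067), in Leydig-like 7 (20.9%), in surface epithelium-like 5 (14.1%) and in Sertoli-like and germ-like nuclei 0 (4.10% and 0.669%). AGATAA was in 7 of the 23, CAAGGTCA in 2, and TGATTTAT and the CTCF core in 0. Over the 92 peaks of this flank the shares were 18.5%, 6.52%, 4.35% and 4.35%. The counts in the 23 are small, and no difference from the flank was tested.

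The peak at chr2:75202288-75203215, whose sequence is printed above, was the largest of them. It had 48.3 FPM (42.8 to 54.3) in progenitor-like, 40.4 FPM (32.0 to 50.5) in mesonephric mesenchyme-like and 34.8 FPM (22.1 to 52.3) in surface epithelium-like nuclei, whose intervals overlap. Leydig-like nuclei had 9.77 FPM (5.05 to 17.1), Sertoli-like 8.13 FPM (4.33 to 13.9) and germ-like nuclei 12.7 FPM (8.78 to 17.9). This peak thus stood higher in the 3 classes with high summed *Hox* RNA than in the 3 with low *Hox* RNA. The 23 peaks as a set did not share this split. Of them, 14 were at least 2-fold lower in surface epithelium-like nuclei, and 7 had a Leydig-like ratio above 1. RNA of *2600014E21Rik*, the noncoding gene around it, was 327 CPM (320 to 335) in progenitor-like nuclei and 27.9 to 73.5 CPM in the other large classes. This gene was chosen after its values were seen.

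The peak at chr2:75582885-75583752 had the highest progenitor-like ratio of all members, 5.59 (2.99 to 11.2), from 62 fragments, 49 of them progenitor-like. The peak at chr2:75618510-75619402 farther out had a progenitor-like ratio of 2.8. The peak at chr2:75623759-75624628, still farther out, had 17.5 FPM (11.6 to 25.3) in Sertoli-like nuclei and 1.73 FPM (0.83 to 3.18) in progenitor-like nuclei. It is named for its Sertoli-like ratio, with 28 of its 54 fragments in that class. Its low progenitor-like value therefore does not show where the pattern ended. In steps of 200 kb from the cluster, the progenitor-like ratio of the flank was 1.40 (11 peaks), 1.69 (26 peaks), 2.0 (10 peaks) and 1.86 (21 peaks), and then 1.02 in the last step (24 peaks), which holds the starts of *Hnrnpa3* and *Nfe2l2*. The plot by distance shows this block of peaks.

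**Figure D4:**
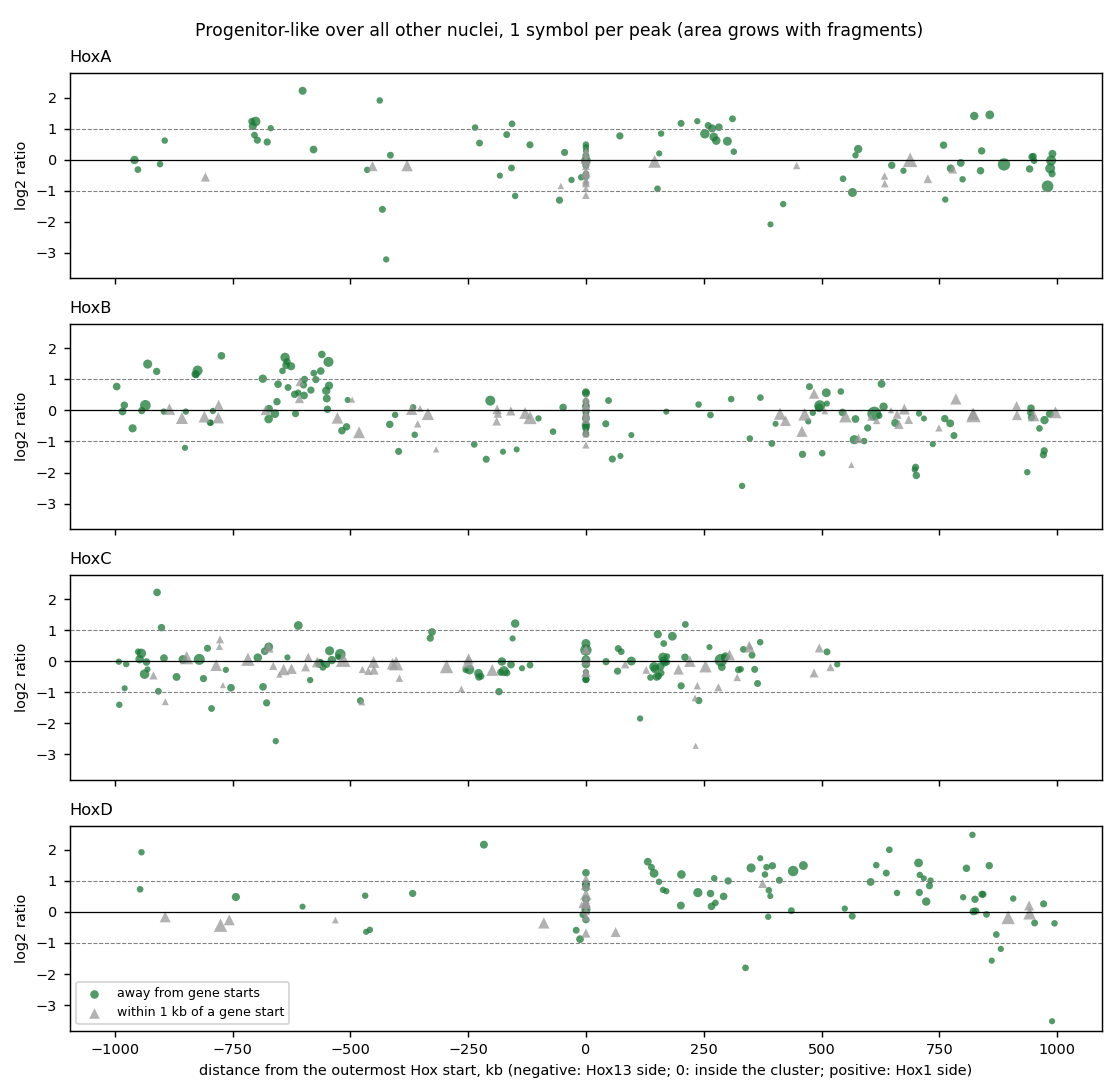
Log2 ratio of progenitor-like to all other nuclei for member peaks with at least 50 fragments, against distance in kb from the outermost *Hox* start (negative on the Hox13 side, 0 for peaks inside), in 1 panel per cluster; circles are peaks away from gene starts, triangles peaks at starts, symbol area grows with the number of fragments, and dashed lines mark 2-fold. On the Hox1 side of HoxD 23 circles lie past the upper line, and of the 164 triangles 1 lies past the upper and 8 past the lower line.

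The Hox13-side flank of HoxD was different. Germ-like nuclei had 419 FPM (394 to 444) there, 435 FPM without the high-UMI part, and the other large classes 299 to 335 FPM. The excess lay at the 7 gene starts, with 294 FPM (274 to 316) in germ-like and 185 to 200 FPM in the other classes, and the 32 peaks away from starts had 124 FPM in germ-like and 139 FPM in progenitor-like nuclei. The starts were led by *Atf2*, a stress-responsive transcription factor, with 106 FPM in germ-like and 67.3 FPM in progenitor-like nuclei, *Chn1* with 65.3 and 35.5 FPM, and *Lnpk*, which codes for a protein of the endoplasmic reticulum, with 59.5 and 36.1 FPM. RNA of *Atf2* was highest in germ-like nuclei, at 568 CPM against 296 to 358 CPM in the other large classes. RNA of *Lnpk* was not, at 151 CPM against 155 CPM in mesonephric mesenchyme-like nuclei. The germ-like excess at starts was not particular to this flank. Its ratio to all other nuclei was 1.53 (1.41 to 1.66) here, 1.43 (1.26 to 1.61) on the Hox13 side of HoxA and 1.04 to 1.18 in the other flanks. Over all promoter peaks with at least 20 CpG the median germ-like ratio was 1.19.

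Stretches of other flanks also had progenitor-like ratios above 1. From 600 to 800 kb on the Hox13 side of HoxA, within and near *Jazf1*, 15 peaks had a ratio of 1.95 (1.75 to 2.18). One of them, at chr6:52861643-52862538 in an intron of *Jazf1*, had 20.1 FPM (16.6 to 24.1) in progenitor-like nuclei, 8.29 FPM in mesonephric mesenchyme-like nuclei and 0 to 4.07 FPM in the other large classes. *Jazf1* RNA was not highest in progenitor-like nuclei, which had 64.8 CPM, but in Sertoli-like nuclei with 349 CPM. From 200 to 400 kb on the Hox1 side of HoxA 17 peaks had 1.54 (1.40 to 1.69), but mesonephric mesenchyme-like nuclei were as high there, with 177 FPM against 162 FPM in progenitor-like nuclei. From 600 to 800 kb on the Hox13 side of HoxB 26 peaks had 1.37 (1.29 to 1.46). On the Hox13 side of HoxD a step from 200 to 400 kb with 6 peaks had 2.25 (1.82 to 2.78). In HoxC the ratio of the steps with at least 11 peaks stayed between 0.91 and 1.02. The HoxD step with 6 peaks falls outside that rule. The stretches are named for their ratios, and no steps elsewhere in the genome are set beside them here.

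Beside the 1.39 of the Hox1 side of HoxD, the other flanks differed less between progenitor-like and Leydig-like nuclei, 2 of them with progenitor-like nuclei higher and 1 lower by more than counting error. Their ratio was 1.23 (1.10 to 1.38) on the Hox13 side of HoxA, 1.06 (0.99 to 1.14) on its Hox1 side, 1.20 (1.13 to 1.27) and 0.93 (0.88 to 0.98) for HoxB, 1.01 (0.96 to 1.06) and 0.99 (0.92 to 1.07) for HoxC, and 1.08 (0.97 to 1.22) on the Hox13 side of HoxD. The value on the Hox13 side of HoxB turned to 0.94 when the flank was cut at 500000 bp, the stretch with the progenitor-like excess lying farther out.

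The 18 peaks with the highest ratio in a class, 3 per class, were small distal peaks. They held 50 to 153 fragments and 0 to 8 CpG, 1 lay inside a cluster and 1 at a gene start. Their ratios are those of peaks chosen as highest, and the intervals do not cover this choice. Some passed the minimum of 50 fragments only through the class they are named for. The top Sertoli-like peak had 30 of 54 fragments in its class, the top germ-like peak 36 of 51 and the top progenitor-like peak 49 of 62. For progenitor-like nuclei, besides the HoxD and *Jazf1* peaks, it was a peak near *Krt8* on the Hox13 side of HoxC with a ratio of 4.64 (3.07 to 7.20). For mesonephric mesenchyme-like nuclei the ratios were 5.52 (3.27 to 9.25) at chr6:52410497-52411410, 3.79 (2.39 to 5.94) near *Itga5* and 3.59 (2.29 to 5.55) at chr6:52379132-52380007, and the first and last lay 150152 and 118768 bp beyond the Hox13 end of HoxA. The first of these was as high in surface epithelium-like nuclei, with 16.7 FPM against 15.5 FPM.

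For surface epithelium-like nuclei the peak in an intron of *Igf2bp1*, which codes for an RNA-binding protein, had 39.4 FPM (25.7 to 57.7) against 2.70 to 7.50 FPM, a ratio of 8.17 (4.98 to 13). The others were an intergenic peak 458541 bp from the Hox13 end of HoxD, with a ratio of 7.38 (3.89 to 13.3), and the 1 inside a cluster. This peak, at chr15:103032089-103033070 in an intron of *Hoxc4*, had 39.4 FPM in surface epithelium-like and 3.09 to 10.4 FPM in the other large classes, a ratio of 7.29 (4.47 to 11.5). *Hoxc4* RNA was also highest in surface epithelium-like nuclei, at 108 CPM against 86.4 CPM in mesonephric mesenchyme-like and 74.9 CPM in progenitor-like nuclei.

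For Leydig-like nuclei the peak in *Gm11529* printed above had 13 FPM (7.45 to 21.2) against 1.88 to 3.48 FPM, a ratio of 5.03 (2.59 to 9.36). The next were in an intron of *Cbx5*, which codes for a heterochromatin protein, with 3.95 (2.44 to 6.22), and near *Tax1bp1*, with 3.56 (2.09 to 5.85). The last had 17.9 FPM in Leydig-like and 21.9 FPM in Sertoli-like nuclei and was thus not highest in the Leydig-like class. For Sertoli-like nuclei a peak in *Nfe2* had 18.8 FPM (12.7 to 26.8) against 0 to 4.25 FPM, a ratio of 9.97 (5.63 to 17.8), followed by a peak near *Tax1bp1* with 8.83 (5.12 to 15.3) and the HoxD flank peak at chr2:75623759-75624628 with 8.59 (4.85 to 15.2). The 200 bp of the *Nfe2* peak with most transposase cuts, chr15:103251754-103251953, held 2 matches to CAAGGTCA and 1 to AGATAA. The stretches chosen in the same way in the top peaks of progenitor-like, mesonephric mesenchyme-like, surface epithelium-like and germ-like nuclei held 0 matches to the 4 motifs. For germ-like nuclei the ratios were 10.9 (5.83 to 21.4) at chr6:51766220-51767046, 7.39 (4.33 to 12.8) in *Skap1* and 6.82 (4.59 to 10.2) in an exon of *Osbpl7*, all on Hox1 sides.

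The 3 peaks with most fragments in each of the 12 regions were of the other kind, 28 of the 36 being at a gene start. In the flanks they included starts of *Hnrnpa2b1*, *Kpnb1*, *Sp1*, *Tarbp2*, *Atp5g1*, *Copz1* and *Hnrnpa3*. Some varied little over the 6 large classes, such as *Sp1* with 109 to 145 FPM and *Kpnb1* with 95.4 to 129 FPM. Others varied more, such as *Nfe2l2* with 39.9 to 79.8 FPM and *Chn1* with 24.2 to 65.3 FPM. Of the 8 away from starts, the widest ranges as a fold were those of the HoxD peak in *2600014E21Rik* given above and of a peak in an intron of *Jazf1*, with 33.9 FPM in progenitor-like and 7.50 FPM in Sertoli-like nuclei. Inside HoxC the peak with most fragments, in introns of *Hoxc5* and *Hoxc6*, had 43.0 to 53.0 FPM in the 5 somatic classes and 21.2 FPM in germ-like nuclei. The largest of HoxD, at the start of *Hoxd8*, is described above.

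Of 21 neighbouring genes listed for the flanks, 18 had a start peak, and 10 of these were highest in germ-like nuclei, beside the 39.4% of all genes given above. *Mtx2*, which codes for a mitochondrial protein, had 44.0 FPM there against 16.6 to 28.8 FPM in the other large classes. *Evx1* and *Evx2*, homeobox genes next to the Hox13 ends of HoxA and HoxD, had 10.0 and 8.1 FPM in germ-like nuclei and at most 6.1 FPM elsewhere, with RNA of at most 0.14 CPM in any large class. *Copz2* on the Hox1 side of HoxB was highest in progenitor-like nuclei by its start, with 35.8 FPM, but in Leydig-like nuclei by its RNA, with 75.1 CPM against 28.4 CPM. *Hotair*, *Skap1* and *Smug1* had no start peak. Of the 17 neighbours with at least 100 UMIs, RNA was highest in germ-like nuclei for 9, including *Hibadh*, an enzyme of valine breakdown, at 518 CPM against 130 to 265 CPM, beside the 34.6% of all genes with as many UMIs.

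The 9 partner genes of Hox proteins all had start peaks. Their RNA was highest in progenitor-like nuclei for 4, mesonephric mesenchyme-like for 3, surface epithelium-like for 1 and germ-like nuclei for 1, beside 10.8%, 7.99%, 11.3% and 34.6% of all genes with at least 100 UMIs. The last was *Pbx4*, with 15.9 CPM in germ-like and 0.67 to 7.3 CPM in the other large classes. *Meis1* and *Meis2* RNA was highest in mesonephric mesenchyme-like nuclei, at 1728 and 2257 CPM, against 201 and 168 CPM in germ-like nuclei. Their starts had 26.9 and 30.6 FPM in mesonephric mesenchyme-like and 14.3 and 11.6 FPM in germ-like nuclei, so both measures were lowest in germ-like nuclei of the 6 large classes.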

How the data were processed

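The authors ran Cell Ranger ARC 2.0.1 on mm10 and deposited raw counts: UMIs per gene, transposase cuts per peak (called over all nuclei together), and a list of unique fragments. Member peaks, gene lists, markers and alternatives were chosen with earlier results of these data known. Nuclei were kept with more than 500 genes, 250 to 25000 fragments at peaks making up more than 20% of all fragments, and UMI shares below 10% for mitochondrial genes, 10% for ribosomal protein genes and 0.5% for haemoglobin genes; the filter of the study on blacklisted regions was not applied. The top 6.13% of Scrublet doublet scores (scanpy 1.11.5) were removed by rank, which leaves doublets behind. RNA of kept nuclei was clustered with Seurat 5.3.0 (2000 variable genes without *Hox* genes and neighbours, 30 components, resolution 0.3), and each cluster took the class with the highest mean marker score. Ambient RNA was not removed.

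Fragments with a cut inside a peak were counted once per peak, summed per class and divided by all fragments at peaks of the class. Levels have exact Poisson and ratios exact conditional binomial intervals at 95%, which treat fragments as independent and cover counting error only. Fragments had 1.09 read pairs on average, so deeper sequencing would have found more. Genomic contexts came from GENCODE vM21 and sequences from the GRCm38 reference, the build named mm10. Named by rule were the 3 members with the highest ratio per class, the 3 with most fragments per region, all *Hox* genes, listed neighbours and Hox partners. The script was tested on simulated counts. The alternatives changed clustering, doublet removal, minimums, scaling, thresholds, start window and flank length.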

Additional observations from a re-analysis of the deposited data

Results flagged for a closer look

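Fragments lay at the starts of 9 *Hox* genes for which no peak had been called, and which the comparisons of start peaks therefore left out. Within 1 kb of the start there were 389 fragments at *Hoxb9*, 324 at *Hoxc5*, 209 at *Hoxc6*, 187 at *Hoxc9*, 139 at *Hoxd12*, 127 at *Hoxa2*, 110 at *Hoxb8*, 106 at *Hoxb3* and 82 at *Hoxc12*. Windows of the same width in the 4 regions that touch no called peak held a median of 26 fragments, and 95% of these 3253 windows held at most 74, which each of the 9 starts exceeded. At *Hoxb9* these came to 36.3 FPM in Sertoli-like, 34.8 in surface epithelium-like and 22.7 to 27.8 in the other large classes, so the fragments at the start itself did not follow its RNA as the upstream peak did. *Hoxc12* and *Hoxd12* had 0 and 1 UMI.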

How the results depend on the processing

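Each of 35 values was recomputed under 15 alternatives, of which 2, the mesonephric part alone and the germ-like class without its high-UMI nuclei, were chosen after seeing the data. Of the recomputed values 455 stayed within the counting interval (for counts of peaks, within 1.5 times), 69 moved and 1 changed direction. Many of the 455 could not move: a changed fold reached only counts of called peaks, and the start window only values at *Hox* starts. The tally is therefore no measure of how stable the values are. A fold of 1.5 moved 12 values, and a fold of 3 and a minimum of 100 fragments moved 13 each. Leaving the doublets in, cut sites in place of fragments, *Hox* genes among the variable genes, a start window of 500 bp and the germ-like class without its high-UMI nuclei moved none of the 35. No paired analysis was possible because each assay has 1 library. The ratio that changed direction was progenitor-like over Leydig-like on the Hox13 side of HoxB, which was 0.94 with flanks of 500 kb. With those flanks the Hox1 side of HoxD rose to 1.74.

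Inside HoxA the ratio of mesonephric mesenchyme-like to progenitor-like nuclei was 1.56 at resolution 0.6, 1.70 at the automatic doublet threshold (which leaves 300 nuclei in the class), 1.62 with stricter minimums and 1.55 in the mesonephric part. The Hox1 side of HoxD, progenitor-like over Leydig-like, was 1.6 at the automatic threshold. Of its peaks higher in progenitor-like nuclei, 15 were left at resolution 0.6 and 15 at the automatic threshold, in place of 23. At a fold of 3 the count was 4 of 65 (6.15% against 2.79% of all peaks), and at 1.5 it was 35 of 65 (53.8% against 23.1%). With a minimum of 100 fragments it was 10 of 28 (35.7% against 11.2%), and with flanks of 500 kb 13 of 30 (43.3% against 11.8%). Mesonephric mesenchyme-like lower peaks numbered 106 at resolution 0.6, 80 at the automatic threshold, 99 with stricter minimums and 106 in the mesonephric part, against 40, and the shares of all peaks rose from 12.8% to 24.1%, 24.5%, 23.7% and 24.1%. With stricter minimums, 9 peaks were higher (1.71% against 5.90% of all peaks) and 69 lower (13.1% against 14.0%) in Leydig-like nuclei.

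Counts of called members depended most on the threshold and the minimum, so each was set against the share of all peaks at the same setting. Over the 15 alternatives, of which the start window and, for other classes, the mesonephric part leave these shares as they were, the member share minus that of all peaks ran, for higher peaks, from -6.04 to -1.26 percentage points in Leydig-like, -6.61 to -1.80 in Sertoli-like, -2.85 to 0.40 in progenitor-like, -0.61 to 4.13 in mesonephric mesenchyme-like, -0.82 to 4.68 in surface epithelium-like and -0.82 to 2.47 in germ-like nuclei. For lower peaks it ran from -6.83 to -1.46 in mesonephric mesenchyme-like, -8.90 to -4.66 in surface epithelium-like, -7.94 to -2.39 in germ-like, -5.36 to 0.09 in progenitor-like, -0.87 to 3.05 in Leydig-like and 0.98 to 6.44 in Sertoli-like nuclei. With a minimum of 20 fragments, lower counts were 83 in progenitor-like (11.4% against 16.8% of all peaks), 89 in mesonephric mesenchyme-like (12.3% against 18.9%) and 167 in surface epithelium-like nuclei (23.0% against 31.2%). Higher counts were 32 in Leydig-like (4.41% against 9.59%), 66 in Sertoli-like (9.10% against 13.4%) and 84 in germ-like nuclei (11.6% against 11.8%). With a minimum of 100 fragments, higher and lower counts of 318 members were 36 and 8 (progenitor-like), 15 and 14 (mesonephric mesenchyme-like), 22 and 41 (surface epithelium-like), 7 and 42 (Leydig-like), 11 and 59 (Sertoli-like), 18 and 67 (germ-like). Member shares were 11.3% and 2.52%, 4.72% and 4.40%, 6.92% and 12.9%, 2.20% and 13.2%, 3.46% and 18.6%, 5.66% and 21.1%. Those of all peaks were 11.2% and 3.56%, 4.12% and 5.86%, 5.72% and 18.0%, 3.46% and 11.9%, 5.26% and 17.3%, 5.07% and 26.5%. At a fold of 1.5 the higher counts were, in the same order, 113, 84, 122, 46, 61 and 96. Lower counts were 94, 91, 151, 180, 217 and 193. Higher member shares were 20.3%, 15.1%, 21.9%, 8.26%, 10.95% and 17.2%, against 23.1%, 15.5%, 17.2%, 14.3%, 17.6% and 14.98% of all peaks. Lower member shares were 16.9%, 16.3%, 27.1%, 32.3%, 38.96% and 34.6%, against 18.7%, 22.8%, 36.01%, 30.7%, 33.2% and 42.5% of all peaks. At a fold of 3 the counts were 12 and 14, 7 and 13, 25 and 69, 7 and 43, 18 and 64, 20 and 50. Member shares were 2.15% and 2.51%, 1.26% and 2.33%, 4.49% and 12.4%, 1.26% and 7.72%, 3.23% and 11.5%, 3.59% and 8.98%. Those of all peaks were 2.79% and 4.48%, 1.61% and 5.93%, 3.42% and 17.0%, 2.66% and 8.08%, 5.48% and 10.5%, 3.94% and 11.4%.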
